A study of Homo sapiens with 12 samples.

Results

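The genes described here encode the proteins of the cytosolic ribosome. They were chosen by symbol, as RPL or RPS followed by a number and at most an A or X, with RPLP0, RPLP1, RPLP2 and RPSA added. The rule found 77 of the 13937 genes in the table, 46 of the large subunit and 31 of the small subunit. FAU, which encodes a ribosomal protein fused to a ubiquitin-like protein, and RACK1, which encodes a protein bound to the small subunit, fall outside the rule and are given for comparison.

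RNA was read from its 3' end in WI-38, a line of fibroblasts from human fetal lung. Cells were transfected with small interfering RNAs (siRNAs), and the 12 libraries form 6 groups of 2. The control group received the control siRNA siAS. The YT group received siAS with siRNAs against YAP and TAZ, the transcriptional coactivators of the Hippo pathway. The cGAS group received siAS with siRNA against cGAS, the enzyme that senses DNA in the cytosol, and the STING group received siAS with siRNA against STING, the membrane protein that cGAS activates through its product cGAMP. The cGAS_YT and STING_YT groups received the YAP and TAZ siRNAs with the cGAS or the STING siRNA and, per the labels, no siAS. The titles add 4x to the names of the cGAS and STING siRNAs, and the labels do not say what it stands for. All cells were therefore transfected, and no group of untransfected cells is used here. Libraries are called by group and by the replicate number of their title, such as YT 3 and YT 4. Whether both libraries of a group stem from separate cultures is not stated, and each p-value speaks only to the scatter among these libraries, which could be technical.

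A ribosome reads mRNA with its small subunit and joins amino acids with its large subunit. Each subunit is built in the nucleolus from ribosomal RNA and a single copy of nearly every ribosomal protein, so cells make the proteins in matched amounts. The mRNAs of these proteins begin with a run of pyrimidines at the very 5' end, the terminal oligopyrimidine (TOP) motif, through which the growth-controlling kinase mTOR and the RNA-binding protein LARP1 set their translation and stability.

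The annotated start sites held such a run more often than other genes did. Of the 77 genes, 62 were matched by symbol to RefSeq start windows on GRCh38.p14. The search was for a C followed by at least 4 further bases that are each C or T, on the sense strand, with the first C within 5 bases of the annotated start. Such a run stood in 50 of the 62 windows (80.6%), against 21.1% of all 35116 promoters and 22.5% of the 9673 other genes of the table that were matched. The median run of these 50 genes was 11 bases long. The windows of 6 genes are shown because the genes recur in the results: RPL3 and RPS6 were among the most lowered after cGAS siRNA, RPS10 differed between backgrounds, RPS19 and RPLP2 were called in none of the main comparisons, and RPL10 has no run at its annotated start. They lie at chr22:39319604-39319633 (RPL3, minus strand), chr9:19380217-19380246 (RPS6, minus), chr6:34426050-34426079 (RPS10, minus), chr19:41860245-41860274 (RPS19, plus), chr11:809957-809986 (RPLP2, plus) and chrX:154398055-154398084 (RPL10, plus). Each runs 5' to 3' over 30 bases, 10 before the annotated start and 20 from it on, with the pyrimidine run in capitals.
RPL3: gccgaccggCCTCTaccggcgggatttgat
RPS6: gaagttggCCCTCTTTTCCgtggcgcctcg
RPS10: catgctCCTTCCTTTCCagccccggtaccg
RPS19: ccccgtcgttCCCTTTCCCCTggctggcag
RPLP2: tcggcgCCTTCCTTTTCCTCCCTgtcgcca
RPL10: ccactctcagaaatatacgtctgtcacagt
The run was shortest in RPL3, at 5 bases, and reached 17 bases in RPLP2. A match describes these letters only, and the motif acts at the 5' end of the mRNA, which 3' end sequencing does not read.

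Most of these genes were abundant. Levels are given in CPM, read counts relative to library size and scaled by the authors' TMM factors, and the assay counts about 1 fragment per transcript, so they are not divided by length. The mean level over the 12 libraries had a median of 668 CPM over the 77 genes, with quartiles of 229 and 1149 CPM, and for 70 of the 77 that mean reached 100 CPM. The highest means belonged to RPL37A (3362 CPM), RPLP1 (3065 CPM), RPL27A (2445 CPM), RPS6 (2302 CPM) and RPS27A (2228 CPM). The lowest belonged to RPL17 (1.96 CPM), RPS26 (11.3 CPM), RPL36A (19.4 CPM) and RPS3A (33.1 CPM). These levels were set beside the gene models, since reads of near-identical copies may be lost or split. GENCODE release 29 names 1133 pseudogenes of the 77 genes, a median of 10 per gene and 91 for RPL23A. Among the genes, 9 overlap exons of another coding gene on the same strand, RPL17 and RPL36A among them, and their mean levels had a median of 132 CPM against 749 CPM for the other 68. How far reads were lost or split between such copies was not tested, so levels between these genes are uncertain while each gene's change between libraries uses the same counting throughout.

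The libraries held 17790774 to 20650727 reads each. The siRNAs lowered their targets in every group: YAP1 stood at 82.2 to 114 CPM in the libraries without its siRNA and 12.6 to 24.6 CPM with it, WWTR1 (TAZ) at 93.5 to 144 and 11.4 to 22.8 CPM, MB21D1 (cGAS) at 4.67 to 9.60 and 1.30 to 1.94 CPM, and TMEM173 (STING) at 18.1 to 29.9 and 1.28 to 1.93 CPM. All 8 fibroblast markers were abundant, from 143 CPM for PDGFRB upward. Of the 10 epithelial, endothelial and leukocyte markers, the table lists only CD14, at 0.147 to 1.14 CPM. Libraries of a group differed in some genes: CXCL8 stood at 493 CPM in YT 3 and 146 CPM in YT 4, and MX1 at 780 CPM in cGAS_YT 9 and 246 CPM in cGAS_YT 10. The share of reads from the mitochondrial genome lay between 2.70% and 5.40%. It differed between the libraries of a group (4.23% in control 1 and 2.70% in control 2), and both STING_YT libraries, at 5.40% and 5.29%, stood above the other 10, of which STING 14 was next at 4.89%. The STING_YT mean was 5.35% ± 0.0752 (SD, n = 2) against 3.47% ± 1.08 in control. Its part in the results below was not tested.

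The ribosomal protein genes together took a smaller share of the reads after YAP and TAZ siRNAs and after cGAS siRNA, and the highest share of reads after STING siRNA without them. The share was 7.03% and 7.41% in control 1 and 2, 5.66% and 6.15% in YT 3 and 4, and 5.88% and 5.99% in cGAS 7 and 8. It was 4.97% and 5.76% in cGAS_YT 9 and 10, 7.65% and 7.45% in STING 13 and 14, and 6.97% and 6.61% in STING_YT 15 and 16. The lowest library was cGAS_YT 9. The YT range overlapped those of cGAS and of cGAS_YT, while both cGAS_YT libraries lay below both cGAS libraries. Both STING libraries were above both control libraries by reads, a difference in means of 0.330 percentage points that was 0.136 without control 1 and 0.524 without control 2. By the summed deposited values the difference was 0.208 points and the groups overlapped, with STING 14 (75301 CPM) below control 2 (76378 CPM). Means were 7.22% ± 0.274 (SD, n = 2) in control, 5.91% ± 0.341 in YT, 5.94% ± 0.0781 in cGAS, 5.37% ± 0.561 in cGAS_YT, 7.55% ± 0.141 in STING and 6.79% ± 0.256 in STING_YT. YT stood at 81.8% and cGAS at 82.3% of the control mean. The widest 95% Wilson interval of a library's share was 0.0121 percentage points to each side, which covers counting error only, so the spread between libraries of a group was far larger than counting error. A sum over the genes gets no test here.

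**Figure D1:**
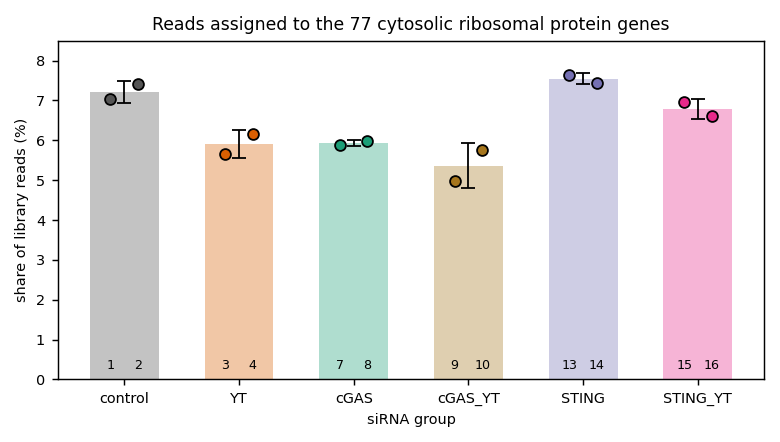
Share of each library's reads (%) assigned to the 77 genes, by siRNA group. Points are libraries with their replicate numbers at the foot, columns are group means and whiskers show the SD. The YT, cGAS and cGAS_YT libraries lie between 4.97% and 6.15%, below both control libraries at 7.03% and 7.41%.

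With YAP and TAZ depleted, transcripts for ribosomal proteins were lower almost throughout. Of the 77 genes, 52 fell and 0 rose in YT against control at an adjusted p under 0.05 (limma over all 13894 genes tested). Of all genes tested, 20.9% fell and 20.6% rose. The median change was -0.33 on the log2(CPM + 1) scale, with quartiles of -0.42 and -0.23, against a median of 0.00 for all genes, and all 77 changes were negative. Both YT libraries lay below both control libraries for 66 of the 77 genes, against 32.0% of all genes, and above them for 0, against 32.9%. In genes whose mean reached 100 CPM 47 of the 70 ribosomal protein genes fell against 31.5% of all such genes. Without control 2, 27 of the 77 passed, and 23 passed when only the YT and control libraries entered the fit. In this bulk RNA, fewer cells with a transcript and less of it per cell cannot be told apart, nor can a smaller amount of these mRNAs from a larger amount of all the others.

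RPL37, a zinc-binding protein of the large subunit, fell most. It stood at 1161 and 1285 CPM in the control libraries and 506 and 502 CPM in the YT libraries, 0.413 of the control level (log2 change -1.28 ± 0.08 SE, adjusted p = 5.34e-09). It stood at 951 and 949 CPM in cGAS, 372 and 384 in cGAS_YT, 1171 and 1179 in STING, and 802 and 707 in STING_YT. The libraries with YAP and TAZ siRNAs lay below all others without overlap, and STING_YT lay between the rest of them and the cGAS libraries. The gene lies on the minus strand of chromosome 5, from 40825262 to 40835335 on GRCh38.

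Among the next lowered genes after YAP and TAZ siRNAs were RPL23A, RPL3 and RPL27. RPL23A, which sits at the mouth of the tunnel through which the new protein leaves, stood at 695 and 729 CPM in control and at 527 and 261 CPM in YT (log2 change -0.94 ± 0.19, adjusted p = 0.001). The drop was uneven: YT 4 was far below YT 3, and the change was -0.43 without YT 4 and -1.44 without YT 3. RPL27 stood at 1089 and 1084 CPM in control and 812 and 657 CPM in YT (-0.57 ± 0.10, adjusted p = 0.000173). RPL3, a protein of the peptidyl transferase region, was even in both libraries, with 94.9 and 110 CPM in control and 68.8 and 64.6 CPM in YT (-0.61 ± 0.12, adjusted p = 0.000603). In all, 27 of the 77 genes were lower in YT 4 than in YT 3 and 50 were higher.

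**Figure D2:**
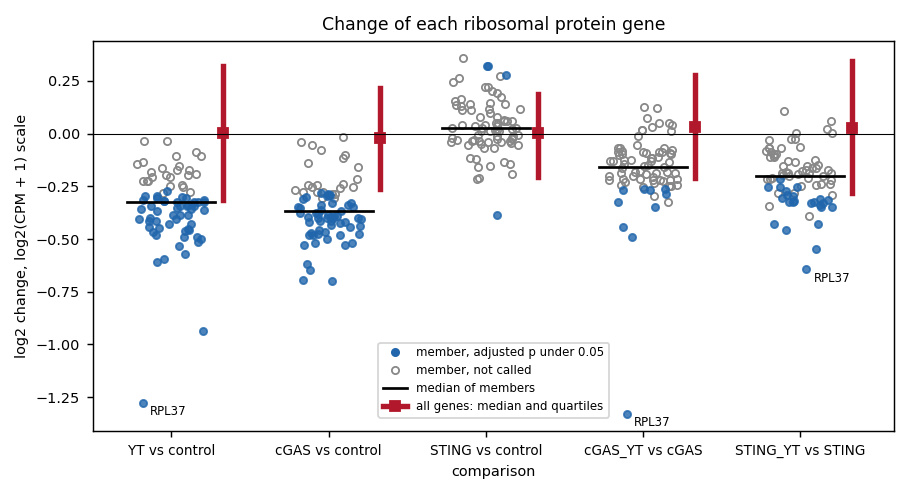
Log2 change of each of the 77 genes (log2(CPM + 1) scale) in 5 comparisons; filled points passed an adjusted p under 0.05, black bars are medians of the 77 genes, and red squares with bars are the median and quartiles of all genes tested. The genes centre on -0.33 in YT and -0.37 in cGAS against control and on 0.03 in STING against control, and RPL37 lies far below the others where YAP and TAZ siRNAs were added to siAS or cGAS siRNA.

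The cGAS siRNA without those against YAP and TAZ gave a shift of like size, measured against the same control libraries. In cGAS against control, 54 of the 77 genes fell and 0 rose, where 14.3% of all genes tested fell and 11.1% rose. The median change was -0.37, with quartiles of -0.43 and -0.28, against -0.02 for all genes. Both cGAS libraries lay below both control libraries for 73 of the 77 genes, against 34.2% of all genes. Of the 70 genes with at least 100 CPM, 50 fell, against 23.9% of all such genes. The count was 26 without control 2, 24 without cGAS 7 and 32 without cGAS 8.

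RPL3, RPL7, RPS6, RPL10 and RPL9 led that comparison. RPL3 stood at 56.6 and 69.3 CPM in the cGAS libraries (log2 change -0.70 ± 0.12, adjusted p = 0.000369). RPL7, a large-subunit protein, stood at 295 and 313 CPM in control and 178 and 197 CPM in cGAS (-0.70 ± 0.12, adjusted p = 0.000389). RPS6, the small-subunit protein that the kinase S6K phosphorylates downstream of mTOR, stood at 2853 and 2815 CPM in control and 1781 and 1840.3 CPM in cGAS (-0.65 ± 0.11, adjusted p = 0.000285). In each of these genes the cGAS libraries lay below the control libraries without overlap. RPL10 joins the large subunit late and shapes its catalytic centre. It stood at 284 and 313 CPM in control and 184 and 204 CPM in cGAS (-0.62 ± 0.09, adjusted p = 0.000122), while its YT libraries, at 262 and 283 CPM, gave a change of -0.13 that was not called (adjusted p = 0.278). RPL9, a protein of the large subunit's side near the stalk base, fell from 276 and 292 CPM to 196 and 197 CPM (-0.53 ± 0.10, adjusted p = 0.000659), and was at 192 and 212 CPM in YT (-0.49 ± 0.10).

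The STING siRNA moved few of these genes. In STING against control, RPL34, RPL13 and RPS10 rose and RPL10 fell, where 6.14% of all genes tested rose and 8.86% fell. The median change was 0.03 against 0.00 for all genes, and across the alternatives it ranged from -0.01 to 0.06. RPL10 stood at 235 and 221 CPM in STING, below both control libraries (log2 change -0.39 ± 0.09, adjusted p = 0.0102). RPL34, a large-subunit protein, stood at 756 and 731 CPM in control and 911 and 947 CPM in STING (0.32 ± 0.10, adjusted p = 0.0378). RPL13, also of the large subunit, stood at 731 and 834 CPM in control and 996 and 953 CPM in STING (0.32 ± 0.10, adjusted p = 0.0443), and RPS10, a protein of the small subunit's head, at 147 and 155 against 188 and 179 CPM (0.28 ± 0.09, adjusted p = 0.0414). Both STING libraries lay above both control libraries for 25 of 77 genes and below them for 13, against 29.9% and 29% of all genes. The 4 called genes were among these, so their lack of overlap adds little to their calls. These calls were fragile: 1 gene passed without control 1, 2 without control 2, 1 without STING 13 and 0 without STING 14, and 0 passed with a constant prior. At an unadjusted p under 0.05 limma had 8 higher and 1 lower, and edgeR called 4 and DESeq2 5 of the 77.

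The cGAS and STING groups, compared directly and so without the control libraries, differed widely. In cGAS against STING, 60 of the 77 genes were lower and 0 higher, where 17.6% of all genes tested were lower. The median difference was -0.39 against -0.02 for all genes, and for 74 of the 77 genes both cGAS libraries lay below both STING libraries, against 38.0% of all genes. The largest differences were in RPL13 (-0.84 ± 0.10, adjusted p = 1.05e-05), RPL7 (-0.75 ± 0.12, adjusted p = 0.000153), RPS10 (-0.72 ± 0.09, adjusted p = 1.07e-05), RPS6 (-0.70 ± 0.11, adjusted p = 9.09e-05) and RPS3 (-0.70 ± 0.10, adjusted p = 6.5e-05). RPS3 helps guide the mRNA into the small subunit. It stood at 1139 and 1207 CPM in cGAS and 2014 and 1793 CPM in STING, with control between them at 1589 and 1668 CPM. The count was 36 without cGAS 7 and 36 without STING 13.

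**Figure D3:**
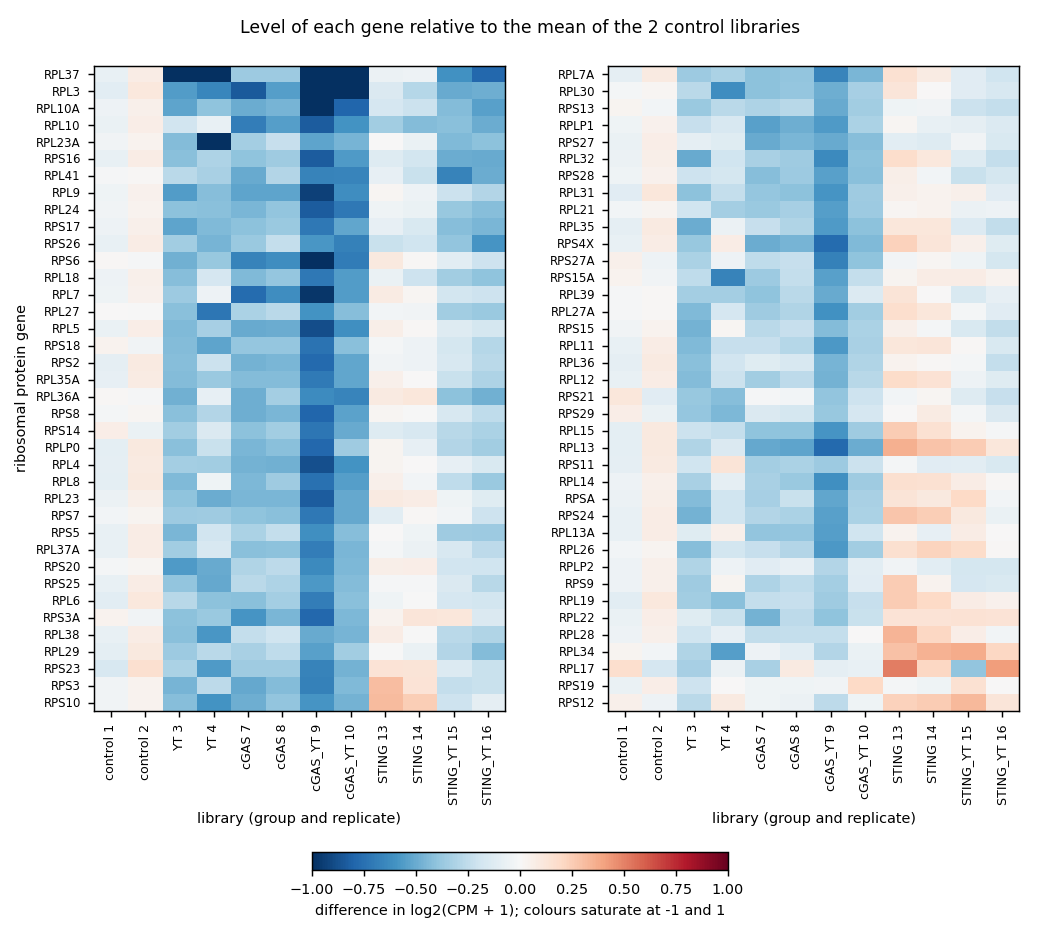
Level of 76 of the genes in each of the 12 libraries as the difference in log2(CPM + 1) from the mean of both control libraries, with colours saturating at -1 and 1 and genes ordered over the 2 panels from the lowest to the highest. The YT, cGAS and cGAS_YT columns are blue for most genes and cGAS_YT 9 is the darkest, while the STING columns are near white or red and RPS19 and RPS12 stand among the least changed.

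The effect of YAP and TAZ siRNAs was also measured with cGAS siRNA present. In cGAS_YT against cGAS, 10 of the 77 genes fell and 0 rose, where 12.7% of all genes tested fell, so the share of these genes was near that of all genes. The median change was -0.16 against 0.03 for all genes, 24 genes were lower at an unadjusted p under 0.05, and edgeR called 9 and DESeq2 15. Both cGAS_YT libraries lay below both cGAS libraries for 43 genes, against 30.2% of all genes, and above them for 1, RPS19, against 36.6%. RPL37 again led, with -1.33 ± 0.08 (adjusted p = 3.03e-08). RPL3 followed, at 39.9 and 49.2 CPM in cGAS_YT (-0.49 ± 0.12, adjusted p = 0.0053), but was not called without cGAS 8 (-0.34, adjusted p = 0.110) or without cGAS_YT 9 (-0.34, adjusted p = 0.0807). RPL10A, of the large subunit's mobile L1 stalk, stood at 615 and 628 CPM in cGAS and 417 and 500 CPM in cGAS_YT (-0.44 ± 0.09, adjusted p = 0.00184). The libraries of this group were unequal: 75 of the 77 genes were higher in cGAS_YT 10 than in cGAS_YT 9, by a median of 0.22 on the log2 scale against 0.00 for all genes. The count was 5 without cGAS 7, 3 without cGAS 8 and 3 without cGAS_YT 9, and 23 when only both groups entered the fit.

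With STING siRNA present, the genes lowered by YAP and TAZ siRNAs numbered 24. In STING_YT against STING, 24 of the 77 fell and 0 rose (median change -0.20), where 19.8% of all genes tested fell. In genes of at least 100 CPM the share was near that of all such genes, with 23 of 70 against 33.4%. The median over all genes was 0.03. Both STING_YT libraries lay below both STING libraries for 62 of the 77, against 35.6% of all genes, and above them for 1, RPS19, against 38.7%. RPL37 led here too, at 0.641 of the STING level (-0.64 ± 0.08, adjusted p = 1.52e-05). RPL36A followed, from 24.9 and 25.3 CPM to 17.3 and 16.5 CPM (-0.55 ± 0.14, adjusted p = 0.00537), and RPS3 fell to 1378 and 1392 CPM (-0.46 ± 0.10, adjusted p = 0.00197). RPS10 stood at 130 and 142 CPM in STING_YT, below both STING libraries (-0.43 ± 0.09, adjusted p = 0.000995). RPL41, the smallest of these proteins and part of a bridge between the subunits, went from 610 and 555 CPM to 408 and 459 CPM (-0.43 ± 0.09, adjusted p = 0.00118). Both STING_YT libraries also had the highest mitochondrial share of reads of all 12, whose part in this comparison was not tested. The count was 6 without STING 13, 13 without STING 14, 11 without STING_YT 15 and 6 without STING_YT 16, 50 when only both groups entered the fit, and 10 with a constant prior.

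Over the 3 backgrounds, 7 genes fell in every comparison of YAP and TAZ siRNAs with their absence: RPL24, RPL37, RPL10A, RPS20, RPL41, RPL38 and RPS16. Of all genes tested, 7.89% did so, which is near the share of these genes. Without each library in turn, 2 of the 7, RPL24 and RPL37, kept all 3 calls and the other 5 lost at least 1. Another 14 of the 77 fell in 2 of the 3 comparisons (8.24% of all genes), 37 in 1 (13.2%) and 19 in none (70.7%), and 66 were negative in all 3, against 28.4% of all genes. RPL24 and RPL41 both form bridges between the subunits. RPL24 stood at 413 and 435 CPM in control against 319 and 317 in YT, 309 and 323 in cGAS against 238 and 258 in cGAS_YT, and 412 and 404 in STING against 326 and 316 in STING_YT. Its changes were -0.41, -0.35 and -0.35, with no overlap in any background. RPS16, a small-subunit protein whose tail reaches the P site, changed by -0.37, -0.32 and -0.35, and its call in the cGAS background was lost without cGAS 7 (adjusted p = 0.0836), cGAS 8 (0.142) or cGAS_YT 9 (0.223). Across the 77 genes, the changes in YT against control and in STING_YT against STING, which share no libraries, had a Pearson r of 0.54 and a Spearman rho of 0.40, and r was 0.43 over the 76 genes without RPL37. The points share each gene's counting and, within a comparison, its libraries, and genes are not independent replicates.

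**Figure D4:**
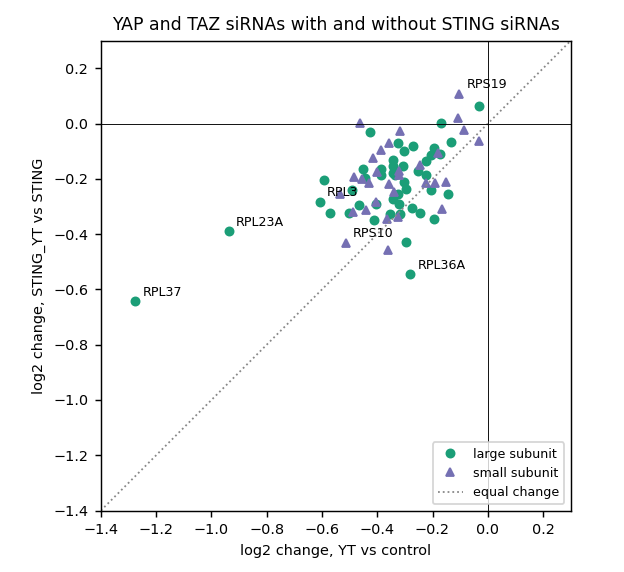
Log2 change of each of the 77 genes after YAP and TAZ siRNAs without STING siRNA (x axis, YT against control) and with it (y axis, STING_YT against STING), on the log2(CPM + 1) scale; the dotted line marks equal change. Circles are large-subunit and triangles small-subunit genes. RPL37, at -1.28 and -0.64, stands apart at the left, followed by RPL23A at -0.94 and -0.39.

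A test of the differences between backgrounds called a single gene in each. For the interaction of YAP and TAZ siRNAs with STING siRNA it was RPL37, whose drop was smaller with STING siRNA by 0.63 ± 0.12 (adjusted p = 0.00289), where 3.35% of all genes tested were called in this direction and 4.53% in the other. The adjusted p of RPL37 stayed under the threshold without each library in turn, from 0.000467 to 0.0328. The mitochondrial share of reads, highest in both STING_YT libraries, moved with this difference, and its part was not tested. Its drop in the cGAS background differed from that in control by -0.05 ± 0.12. For the interaction with cGAS siRNA the gene was RPS10, where 7.5% of all genes were called in this direction and 5.93% in the other. It stood at 112 and 99.4 CPM in YT, 107 and 115 CPM in cGAS and 99.9 and 109 CPM in cGAS_YT, so that it was lower by 0.51 in YT against control and by 0.09 in cGAS_YT against cGAS, a difference of 0.43 ± 0.12 (adjusted p = 0.0313). This call was lost without control 2 (adjusted p = 0.105), YT 4 (0.0534), cGAS 7 (0.137), cGAS 8 (0.0598) or cGAS_YT 10 (0.118), and with a constant prior (0.106). The median interaction over the 77 genes was 0.16 with cGAS and 0.13 with STING, against 0.02 and 0.00 for all genes. At an unadjusted p under 0.05, 12 genes were higher and 0 lower for cGAS, and 7 higher and 0 lower for STING. Both edgeR and DESeq2 called 1 gene in each. Without YT 3, limma called 9 genes for cGAS and 7 for STING.

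The groups with YAP and TAZ siRNAs can also be compared with each other. In cGAS_YT against YT, 28 of the 77 genes were lower and 0 higher, where 20.2% of all genes tested were lower. Of all genes of at least 100 CPM, 29.5% were lower. The median difference of the 77 genes was -0.20. Both cGAS_YT libraries lay below both YT libraries for 38 genes and above for 2 (RPL34 and RPS29), against 33% and 32.7% of all genes. RPL10 led with 167 and 197 CPM in cGAS_YT (-0.58 ± 0.09, adjusted p = 0.000114), followed by RPL3 (-0.58 ± 0.12, adjusted p = 0.000946) and RPL7 (-0.56 ± 0.12, adjusted p = 0.00138; -0.35 without cGAS_YT 9). The count was 9 without cGAS_YT 9 and 44 without YT 3. In STING_YT against YT, 19 genes were higher and 2, RPL10 and RPL41, were lower, where 16% of all genes were higher and 18.0% lower. The median difference was 0.19. RPL34 stood at 602 and 507 CPM in YT and 963 and 860 CPM in STING_YT (0.72 ± 0.10, adjusted p = 3.41e-05), the largest difference of the 77. RPL37 was higher by 0.58 ± 0.08 (adjusted p = 5.93e-05), and RPS15A, a small-subunit protein, stood at 123 and 92.4 CPM in YT and 155 and 151 CPM in STING_YT (0.51 ± 0.12, adjusted p = 0.00319; 0.31 without YT 4). The count of 21 was 7 without STING_YT 15, 11 when only both groups entered the fit or with a constant prior, and 36 with plain CPM. RPL10 was not called without STING_YT 16 (adjusted p = 0.104) and RPL41 not without STING_YT 15 (0.225).

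**Figure D5:**
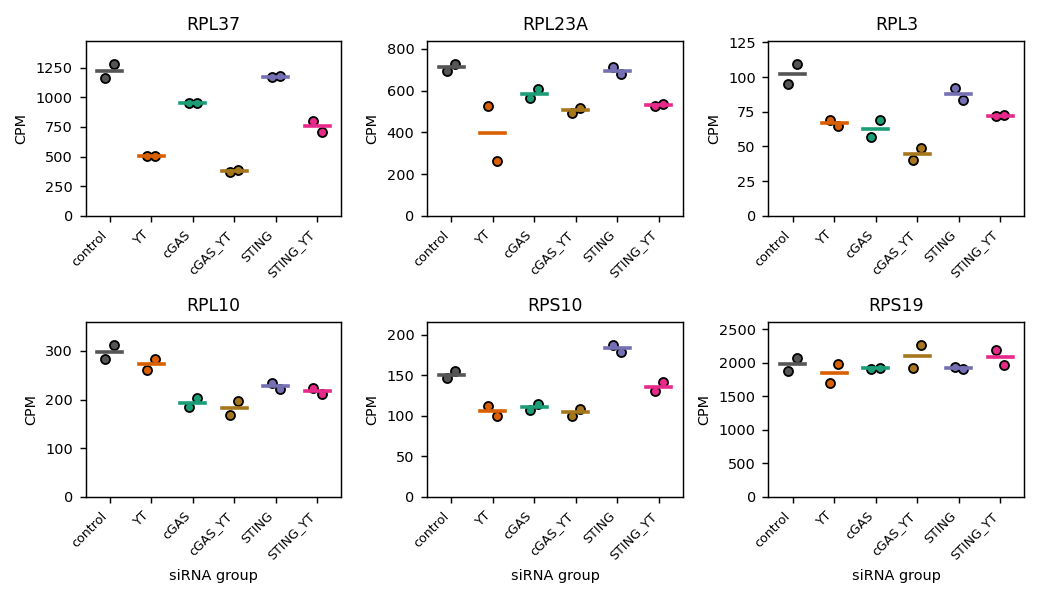
CPM of 6 of the genes in each library, by siRNA group; points are libraries and bars are group means, with each panel's axis starting at 0. RPL37 is lowest in YT and cGAS_YT, RPL23A is lowest in YT 4 (261 CPM), RPL10 is lower in both the cGAS and STING groups, and RPS19 stays between 1706 and 2273 CPM in all 12 libraries.

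Lowered genes came from both subunits. In YT against control 31 of 46 large-subunit and 21 of 31 small-subunit genes fell, and in cGAS against control 34 of 46 and 20 of 31. Of all genes tested, 20.9% fell in YT and 14.3% in cGAS against control. Each group below is a part of the 77 genes, most of which fell in each comparison. All 4 genes of proteins in the bridges between the subunits (RPL24, RPL30, RPL41 and RPS13) fell in both comparisons. The call of RPL41 in YT was lost without control 2, and that of RPL30 in cGAS without control 2, cGAS 7 or cGAS 8. Of 9 genes of proteins at the peptide exit tunnel and its rim, 6 fell in YT and 4 in cGAS. Of 4 genes of proteins at the mRNA entry and decoding site (RPS2, RPS3, RPS15 and RPS23) 3 fell in each, and RPS15 was the exception in both. Of the 6 genes of the mRNA exit and platform, 4 fell in YT and 2 in cGAS, and of the 7 of the head and beak, 4 and 3.

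Of the 4 genes of the P stalk, the flexible arm that recruits elongation factors, 2 fell in YT and 3 in cGAS against control, and the changes of all 4 were negative in both. RPLP0, its base, stood at 1667 and 1902 CPM in control, 1329.7 and 1523 CPM in YT and 1297 and 1329 CPM in cGAS, and fell in both (-0.32 ± 0.12, adjusted p = 0.0419, and -0.44 ± 0.12, adjusted p = 0.0133). RPLP1 stood at 3420.4 and 3630.2 CPM in control and 2416 and 2508 CPM in cGAS (-0.52 ± 0.10, adjusted p = 0.00144), and its change of -0.19 in YT was not called. RPLP2, which pairs with RPLP1 in the stalk, stood at 1235 and 1326 CPM in control, 1039 and 1239 CPM in YT and 1182 and 1208 CPM in cGAS, with changes of -0.17 and -0.10 that were not called. Whether RPLP1 and RPLP2 differed from each other was not tested. RPL12 fell in both (-0.33 and -0.31). The YT calls of RPLP0 and RPL12 were lost without control 2 (changes of -0.23 and -0.25) or YT 3 (-0.22 and -0.22). In cGAS the call of RPLP0 was lost without control 2, and that of RPL12 without control 2, cGAS 7 or cGAS 8.

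RPL5 and RPL11 bind 5S ribosomal RNA and, when free of the ribosome, the ubiquitin ligase MDM2. RPL5 stood at 1146 and 1251 CPM in control, 884 and 949 CPM in YT and 842 and 850 CPM in cGAS, and fell in both (-0.39 ± 0.09, adjusted p = 0.00372, and -0.50 ± 0.09, adjusted p = 0.000928). RPL11 fell in YT (-0.33 ± 0.10, adjusted p = 0.0146, but 0.125 without control 2 and 0.0734 without YT 3) and gave -0.26 in cGAS, which was not called (adjusted p = 0.0766). MDM2 stood at 158 and 136 CPM in control, 235 and 240 CPM in YT and 147 and 156 CPM in cGAS, and rose in YT (0.69 ± 0.08, adjusted p = 4.47e-06).

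Of the 77 genes, 6 passed the test in none of YT, cGAS or STING against control, cGAS_YT against cGAS or STING_YT against STING: RPS27A, RPS12, RPLP2, RPL17, RPS15 and RPS19. Of all genes tested, 31.8% passed in none of the 5. RPS19, a protein of the small subunit's head whose mutation can cause Diamond-Blackfan anemia, stood at 1884 and 2070.1 CPM in control, 1706 and 1979 in YT, 1915 and 1921 in cGAS, 1925 and 2273 in cGAS_YT, 1946 and 1917 in STING, and 2195 and 1975 in STING_YT. The YT and cGAS libraries overlapped the control libraries, and its change was -0.10 ± 0.11 in YT and -0.04 ± 0.11 in cGAS against control. RPS27A, made as a fusion to ubiquitin, stood at 2585 and 2418 CPM in control, 2012 and 2414 CPM in YT and 2098 and 2128 CPM in cGAS, with changes of -0.18 and -0.24. A p that misses the threshold does not show that such a gene was unchanged.

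The changes were also set beside the level and the pyrimidine run. Across the 77 genes the Spearman rho between mean level and change was 0.06 in YT and 0.05 in cGAS against control. In YT against control the 50 genes with a run had a median change of -0.32 and 35 fell, and the 12 matched genes without one had -0.22 and 5 fell. In cGAS against control the medians were -0.36 and -0.34, with 36 of 50 and 7 of 12 lower. These are descriptions of genes that share their libraries.

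Beyond the symbol rule, FAU and RACK1 were compared in the same way. FAU stood at 1469 and 1602 CPM in control and 1118 and 1212 CPM in YT and fell (-0.40 ± 0.09, adjusted p = 0.00146), and gave -0.21 in cGAS, which was not called. RACK1, the scaffold on the small subunit's head, fell in both (-0.29 and -0.51), and its call in YT was lost without control 2 (adjusted p = 0.305) or YT 4 (0.0569).

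Of 6 measured paralogs of ribosomal protein genes, 3 fell and 0 rose in YT against control, and 2 fell and 1 rose in cGAS against control, where 20.9% of all genes fell and 20.6% rose in YT and 14.3% fell and 11.1% rose in cGAS. RPL22L1, the paralog of RPL22, stood at 146 and 144 CPM in control, 44.6 and 33.2 CPM in YT and 212 and 221 CPM in cGAS. It fell by 1.89 ± 0.14 in YT (adjusted p = 2.71e-08) and rose by 0.58 ± 0.14 in cGAS (adjusted p = 0.00704, but 0.0528 without control 2 and 0.0597 without cGAS 8). It also fell in cGAS_YT against cGAS (-2.05 ± 0.14) and STING_YT against STING (-1.76 ± 0.14). RPL22 itself, at 130 and 143 CPM in control, 126 and 117 CPM in YT and 98.4 and 114 CPM in cGAS, gave -0.17 in YT, not called, and fell by 0.37 in cGAS, a call lost without control 2 (adjusted p = 0.0888) or cGAS 7 (0.138). RPL26L1 fell in YT from 36.4 and 41.0 CPM to 19 and 14 CPM (-1.19 ± 0.14, adjusted p = 3.43e-06) and gave 0.08 in cGAS. RPL39L, the paralog of RPL39, fell in both YT (-0.83 ± 0.17) and cGAS (-1.26 ± 0.17). Unlike RPL22L1, the paralog RPL7L1 rose in cGAS_YT against cGAS (0.39) and in STING_YT against STING (0.36). Its call was lost without cGAS 8 or cGAS_YT 9 in the former, and without STING 13 or STING_YT 15 in the latter.

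Lists of other genes were counted in the same comparisons, and their counts are to be read against all genes tested. Of those, 20.9% fell and 20.6% rose in YT and 14.3% fell and 11.1% rose in cGAS against control, while 12.7% fell in cGAS_YT against cGAS and 19.8% in STING_YT against STING. Of 26 ribosome assembly factors, 18 fell and 0 rose in YT against control (median -0.35). In cGAS_YT against cGAS 23 fell (median -0.60), and in STING_YT against STING 24 (median -0.60). But 3 fell and 1 rose in cGAS against control (median -0.09), which is near the share of all genes. In YT the calls of BYSL, EIF6, FBL, HEATR3, NCL, NMD3, NOB1, NOP56, RRN3 and TSR1 were lost when 1 library was left out. The EIF6 change was -0.32 in YT, and -0.08 without YT 3. Some calls in the other comparisons were lost in this way too. SBDS, which helps release the factor eIF6 from new large subunits, stood at 161 and 175 CPM in control, 74.7 and 54.5 CPM in YT and 154 and 160 CPM in cGAS, and fell in YT (-1.38 ± 0.12, adjusted p = 8.03e-08). Of 19 regulators of ribosomal protein synthesis, 6 rose and 6 fell in YT, and 2 rose and 6 fell in cGAS. MYC, a transcription factor that drives ribosome production, stood at 10.8 and 10.4 CPM in control, 5.07 and 1.23 CPM in YT and 9.75 and 10.3 CPM in cGAS, and fell in YT (-1.65 ± 0.31, adjusted p = 0.000493). The MYC change was -0.93 without YT 4 (adjusted p = 0.00187). Of 77 mitochondrial ribosomal protein genes, 29 fell and 3 rose in YT (median -0.25) and 7 fell and 3 rose in cGAS (median -0.09), the latter below the shares of all genes. Of 16 other TOP mRNAs, 7 fell and 1 rose in both comparisons (medians -0.21 and -0.25), and of 10 host genes of small nucleolar RNAs, 6 fell and 1 rose in YT and 2 fell and 2 rose in cGAS. TPT1, a TOP mRNA for a growth-related protein, stood at 2948 and 2965 CPM in control, 2697 and 2912 CPM in YT and 2199 and 2141 CPM in cGAS, where it fell (-0.45 ± 0.10, adjusted p = 0.00296).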

How the data were processed

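RNA of 12 libraries of WI-38 cells was sequenced with a kit that reads the 3' ends of mRNA, per the labels' protocols. STAR 2.5.3a, featureCounts, edgeR and the hg38 build are listed, without their roles, per the submitters' processing notes. Their settings were not given in the sources used here. In the deposited table each gene has 1 signal value a library. From the layout and values, these are CPM that the authors scaled by TMM factors (0.969 to 1.025 when recomputed). The design assumed CPM and was kept. All deposited signal values were whole multiples of 1 read within a tolerance of 0.01 reads, which gave back whole reads. A listed 0 is 0 counted reads, which allows an expected count of up to 3 reads.

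A single limma fit (limma 3.58.1 under R 4.3.3, prior following intensity, 6 residual degrees of freedom) took log2(CPM + 1) from all 12 libraries, for the 13894 genes that reached 1 CPM in 2 or more libraries. P-values were adjusted by Benjamini-Hochberg over all genes within a comparison, at a threshold of 0.05. Errors of changes are standard errors.

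The genes and lists were chosen with earlier results of these data known. Named genes were the 5 most lowered and 3 most raised called genes of each comparison, the 5 highest and 5 lowest in mean level, the role groups, the paralogs, FAU and RACK1, with up to 3 examples of each other list; some of these are not reported here. RPL22, RPS29, RPS20, RPL38 and RPS12 were named beside them after their values were seen. No number in the titles is used for more than 1 library, so libraries were not paired.

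Alternatives changed the scaling (3 others), the pseudocount (0.25 or 4), the filter (none, or 5 CPM), the prior (constant) or the libraries fitted (only those compared, or all but 1), or ran edgeR 4.0.16 and DESeq2 1.42.0 on the recovered reads. A lone library left in a group is taken to vary as the other groups do. The fit was tested on simulated counts. Positions are from GENCODE release 29 on GRCh38.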

Additional observations from a re-analysis of the deposited data

Results flagged for a closer look

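The effect of the YAP and TAZ siRNAs on RPL37 differed between backgrounds by a test of the difference itself: the interaction with STING siRNA was 0.634 on the log2(CPM + 1) scale (adjusted p = 0.00289), from 2 libraries in each of 4 groups. For the interaction with cGAS siRNA, RPS10 differed by 0.426 (adjusted p = 0.0313). Unlike that of RPL37, this call was lost without control 2, YT 4, cGAS 7, cGAS 8 or cGAS_YT 10. It was also lost with a constant prior and with only the groups compared in the fit.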

How the results depend on the processing

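No paired analysis was possible because each replicate number in the titles occurs once. The median change of the 77 genes kept its sign under every alternative run except in STING against control, where it ranged from -0.01 to 0.06. With a constant prior the counts of called genes were 0 (STING against control), 4 (cGAS_YT against cGAS), 10 (STING_YT against STING), 16 (cGAS_YT against YT), 11 (STING_YT against YT) and 0 (interaction with cGAS). With only the groups compared in the fit they were 23 (YT against control), 23 (cGAS_YT against cGAS), 50 (STING_YT against STING), 10 (cGAS_YT against YT), 11 (STING_YT against YT) and 0 (interaction with cGAS). STING_YT against YT had 36 with plain CPM and 36 with CPM over the reads of all other genes, a scaling that moved each library's median by 0.0574 to 0.120. Leaving out each library in turn gave 27 to 61 (YT against control), 24 to 47 (cGAS against control), 0 to 2 (STING against control, with 1 lower and 0 higher without control 1 and without STING 13), 3 to 15 (cGAS_YT against cGAS), 6 to 13 (STING_YT against STING), 9 to 44 (cGAS_YT against YT), 7 to 30 (STING_YT against YT), 36 to 43 (cGAS against STING), 0 to 9 (interaction with cGAS) and 1 to 7 (interaction with STING). A left-out library leaves fewer samples; the cause of the other shifts was not tested. As a sum of deposited values, the difference in share was -1.60 percentage points for cGAS against control (-1.28 by reads) and -1.80 for cGAS against STING (-1.61 by reads). The 41 results for named genes gave 623 alternative values, of which 582 kept their call, 41 lost it and 0 changed sign. With 2 libraries a group, small changes may have been missed at this spread. Some passed, such as RPS28 at -0.21 in STING_YT against STING, but that call was lost without each library of both groups in turn.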
